A study of Mus musculus with 15 samples.

Results

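The 31 genes described here encode the glucose transporters, the enzymes of glycolysis, lactate and pyruvate handling and the pentose phosphate pathway, and the transcription factor Hif1a. Their symbols were given as a list and matched to gene identifiers of the GENCODE vM21 annotation, by a rule that uses no measured value, although the list was drawn up with earlier results of these data known. They are 31 of the 55536 annotated genes in the count table, and all 31 passed the filter on low counts, as did 24262 genes in all. By pathway step they are 2 glucose transporters, 3 genes of the hexokinase and phosphoglucose isomerase step, 5 of phosphofructokinase and its regulators, 3 of aldolase and triose phosphate isomerase, 5 of lower glycolysis, 4 of lactate dehydrogenase and export, 4 of pyruvate dehydrogenase and its kinases, 4 of the pentose phosphate pathway and Hif1a.

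Poly(A) RNA was sequenced from CD8+ T cells of OT-1 Tg C57BL/6J mice, whose transgenic T cell receptor recognises the ovalbumin peptide SIINFEKL. In both groups the donor cells were naive OT-I cells, which the study's methods describe as coming from Rag1- or Rag2-deficient OT-I animals, and they were transferred into C57BL/6J recipients. The Ag group (n = 5) was injected with the peptide and a rat IgG control antibody. The Ag+Costim group (n = 5) was given the peptide with agonist antibodies to the costimulatory receptors OX40 (CD134) and 4-1BB (CD137). Spleen and lymph node cells were collected on day 4 by the labels, or at 3 days plus 12 h by the protocol, which sorted CD8+ CD45.1+ Vα2+ Vβ5+ cells to over 95% purity. The mice were of both sexes and aged 1.5 to 8 months, or 6 to 12 weeks in a second statement. All transferred cells carry the same receptor, and the study describes its samples as biological replicates from separate mice, although the labels name no animal for a library. The remaining labelled group, naive cells, was not analysed here. The comparison asks what costimulation added to antigen in the RNA of these enzymes.

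Glycolysis splits glucose into pyruvate and yields ATP and NADH, and lactate dehydrogenase turns pyruvate into lactate so that NADH is used up again. The pentose phosphate pathway branches off at glucose 6-phosphate and supplies NADPH and ribose for nucleotides. T cells are known to turn to aerobic glycolysis when antigen activates them, and the transcription factors Myc and HIF-1 drive many of these genes.

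Estimated counts summed to 59.6 to 449.4 M (M, 1000000) in the Ag libraries and 332.3 to 639.1 M in the Ag+Costim libraries, and Ag 3 was the shallowest. The Ag libraries were far less alike. Correlations of log2 levels between libraries were 0.928 to 0.994 within Ag and 0.994 to 0.997 within Ag+Costim, and the common dispersion was 1.48 in Ag and 0.341 in Ag+Costim. Ag 1, 3 and 4 had a count on 48058, 51778 and 40441 genes, against 21779 and 20714 in Ag 2 and 5 and 28727 to 30340 in Ag+Costim. All 9 B cell markers had a lower fitted level in Ag+Costim, and none was at 0 throughout. Their summed level was 661 to 1240 counts per M (CPM) in Ag and 532 to 787 in Ag+Costim. The 9 erythroid markers summed to 15.5 to 1110 CPM in Ag, with the highest value in Ag 3, and to 4.54 to 41.3 in Ag+Costim. The 12 CD8 T cell markers were detected in every library, at a sum of 7220 to 14300 CPM in Ag and 9850 to 11900 in Ag+Costim. The 12 myeloid, 6 CD4 T and 7 NK markers summed to at most 192, 64.3 and 131 CPM in any library. All 5 tested CD4 T markers and 6 of the 7 NK markers had a lower fitted level in Ag+Costim. Of the myeloid markers 8 were higher and 4 lower, where 37.7% of all genes tested were higher. The higher NK marker was Eomes, at 18.2 to 102 CPM. The part of other cells, depth and RNA quality in the results below was not tested, and in bulk RNA fewer cells of a kind and less RNA per cell cannot be told apart.

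No enzyme or transporter passed the test between Ag+Costim and Ag. With edgeR's quasi-likelihood test, 0 of 31 members had an adjusted p under 0.05, and 0% of the 24262 genes tested did. At an unadjusted p under 0.05 edgeR named 9 members, 7 higher and 2 lower in Ag+Costim, where 18.6% of all genes tested met that level, 7.89% higher and 10.7% lower. DESeq2, run without that filter on low counts, called 5 members and 22.3% of the 36117 genes to which it gave an adjusted p. Of the members, 3 were higher (Slc2a3, Pfkl and Pgd), as were 2.57% of those 36117 genes, and 2 lower (Aldoc and Ldhb), as were 19.7%. limma voom called 0. With a quality weight per library, limma voom called 29 members, 25 higher and 4 lower, and 52.2% of all genes, with a weight of 0.0986 for Ag 2 and 0.0656 for Ag 5 against 1.42 and 2.00 for Ag 1 and Ag 4. Ag 3 had a weight of 0.508, and the Ag+Costim libraries had weights of 1.70 to 3.35. The number of members called thus ran from 0 to 29 between these tests, and the cause of the range was not tested.

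The fitted levels leaned towards Ag+Costim. The median log2 fold change (Ag+Costim over Ag) of the members was 0.46, and 27 of 31 were above 0. Over all genes tested the median was -0.32, and over the 8626 genes that averaged at least 10 CPM it was 0.24, with 75.6% above 0. The scaling set part of this lean: with the total counts as library size the median was 0.28 for the members and -0.0030 for those more abundant genes. In 3 members, Slc2a3, Pgd and Hif1a, all 5 Ag+Costim libraries lay above all 5 Ag libraries in CPM scaled by the trimmed mean of M values (TMM), and in 0 members they lay below. The same was true upwards of 4.48% of all genes and 11.3% of those averaging at least 10 CPM, so that the members' share was near the background of abundant genes. With the total counts as library size the separate members were Pfkl, Pfkp and Pgd, with 2.76% of all genes and 7.26% of the more abundant ones. Under upper quartile scaling the number was 0 (1.48% of all genes) and under DESeq2 size factors it was 1 (Pgd, with 2.88% of all genes). Without Ag 5 it was 11, and the share of genes rose as well, to 7.01% of all and 19.3% of those with 10 CPM or more.

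**Figure D1:**
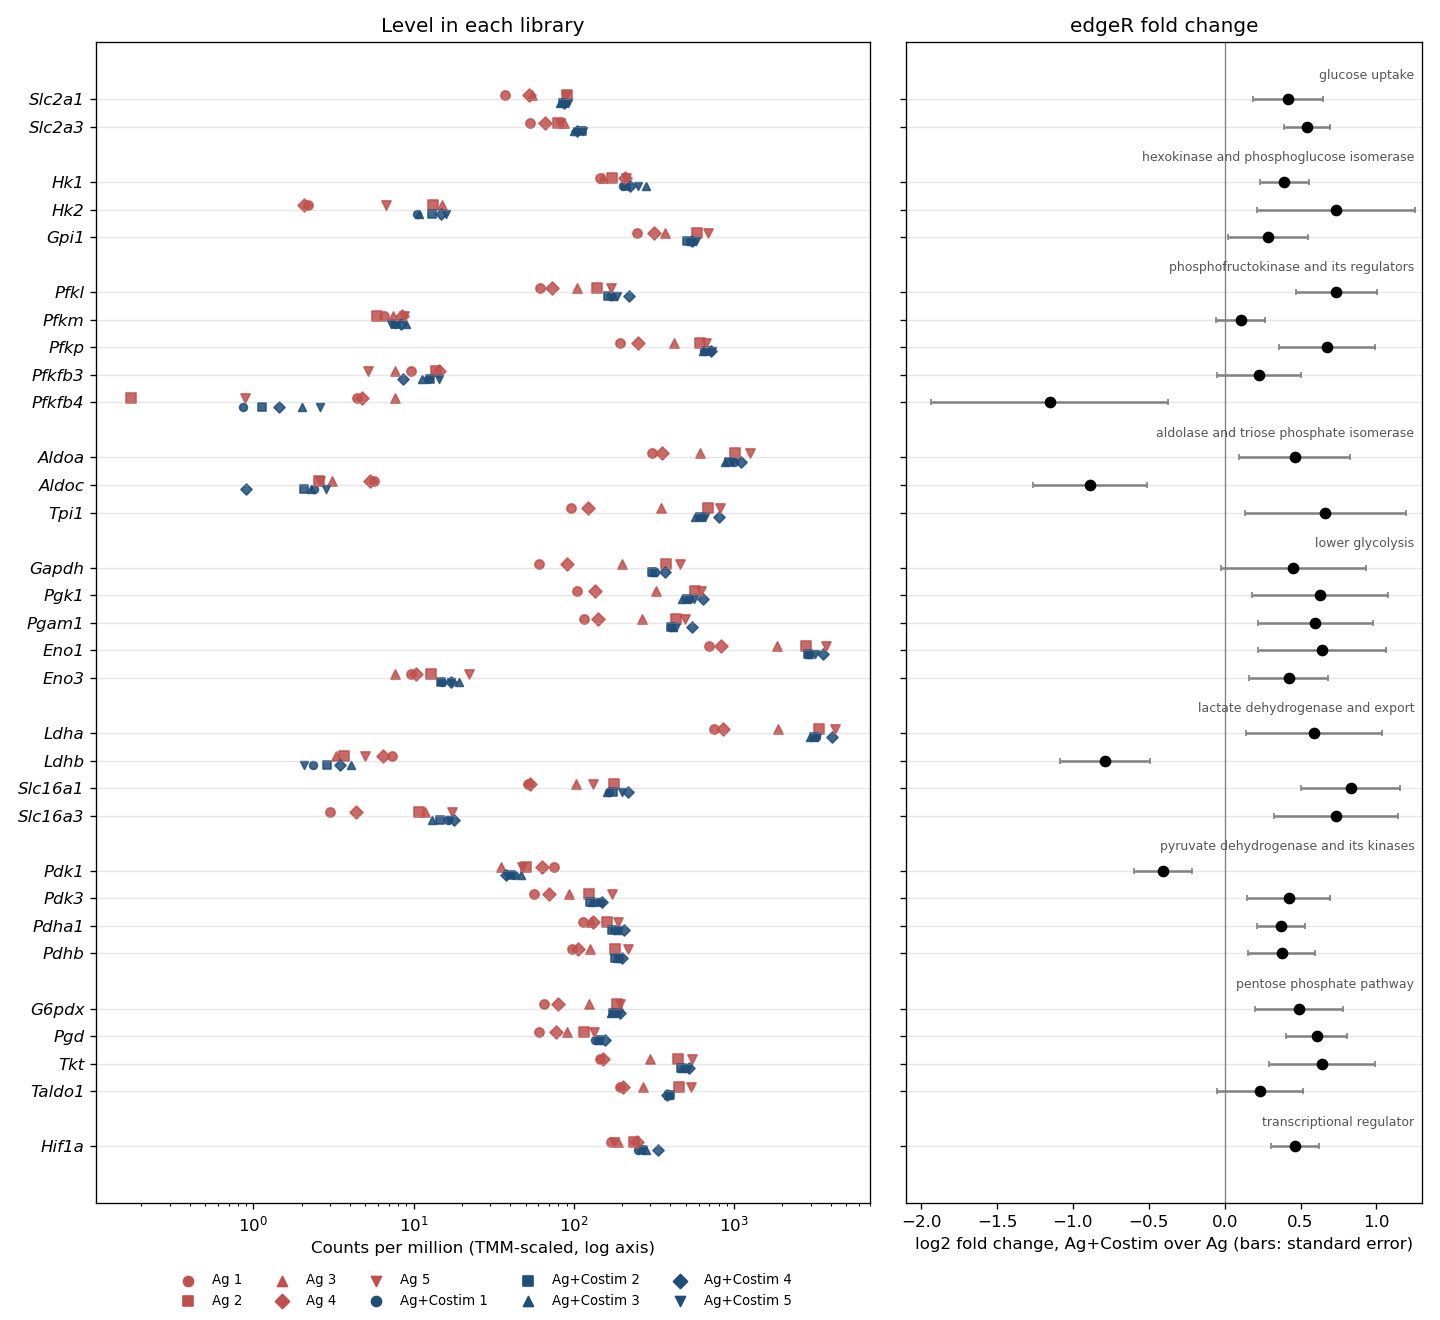
Levels of the 31 members in each library (left: CPM, TMM-scaled, on a log axis; red, Ag; blue, Ag+Costim; marker shape, replicate number) and edgeR log2 fold changes of Ag+Costim over Ag with their standard errors (right), ordered by pathway step. The blue points of a gene lie close together while the red ones are spread out, with Ag 1 and Ag 4 on the left for most enzymes.

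An order among the Ag libraries recurred in many members. For 18 of 31 Ag 1 was lowest, Ag 4 next, Ag 3 in the middle and Ag 2 and Ag 5 highest, and in 35% of the genes with 10 CPM or more the same libraries formed the lowest and the highest pair. The other 13 members had another order. Ag 2 and Ag 5 were the highest pair for 20 members and Ag 1 and Ag 4 the lowest pair for 21, against 53.8% and 40.3% of those genes. The summed level of the members was 3948, 13160, 8203, 4734 and 16010 CPM in Ag libraries 1 to 5, or 0.55, 1.19, 0.977, 0.59 and 1.32% of all counts. In Ag+Costim it was 13020, 12760, 12600, 15530 and 13740 CPM, 1.15 to 1.38% of all counts. Ag 2 and Ag 5 thus reached the Ag+Costim range or passed it, and Ag 1, 3 and 4 stayed below it. The median SD of log2 levels over the members was 0.637 in Ag and 0.133 in Ag+Costim, larger in Ag for 31 of 31, and was 0.456 and 0.12 over genes with 10 CPM or more.

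The 26 cell cycle genes, such as Mki67 and Top2a, were ordered in the same way. Their mean log2(CPM + 1) was 5.97, 8.92, 8.22, 6.05 and 9.02 in Ag libraries 1 to 5 and 8.91 to 9.20 in Ag+Costim, and the mean of the 31 members was 5.82, 6.84, 6.48, 6.05 and 6.99 in Ag and 6.88 to 7.02 in Ag+Costim. The same 3 Ag libraries that were low in both had the most genes with a count. Whether cell division, other cells or RNA quality set the levels of the enzymes was not tested. Ag 1, 3 and 4, the libraries with over 40000 genes counted, were then left out, a step added after the data were seen. The median log2 fold change of the members was then -0.02, with 14 of 31 above 0, and that of genes with 10 CPM or more was 0.04. Since the members were lowest in those 3 libraries, a smaller value follows from the choice itself. With Ag 2 and 5 alone against the 5 Ag+Costim libraries, edgeR called 2 members, Slc2a3 higher (0.44, adjusted p = 0.0187) and Taldo1 lower (-0.31, adjusted p = 0.0294), among 10.8% of 25394 genes.

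**Figure D2:**
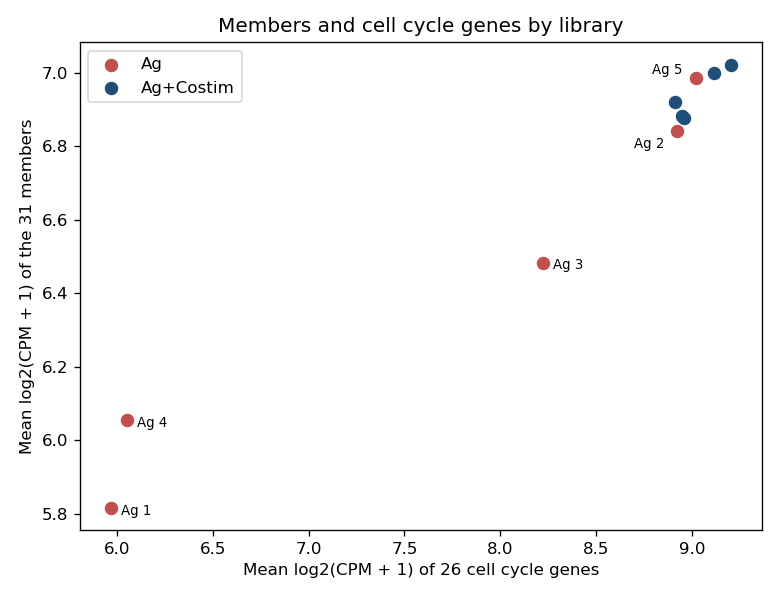
Mean log2(CPM + 1) of the 31 members (vertical axis) against that of 26 cell cycle genes (horizontal axis), 1 point per library. Ag 1 and Ag 4 lie lowest on both axes at 5.97 and 6.05 for the cell cycle genes, Ag 3 lies between, and Ag 2 and Ag 5 lie beside the 5 Ag+Costim libraries.

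Glucose enters T cells through the facilitative transporters Slc2a1 (GLUT1), the form known for activated cells, and Slc2a3 (GLUT3), which has a high affinity for glucose. Slc2a3, on chromosome 6 at 122727809-122801640 (GRCm38, the mm10 assembly, as are all positions), was at 53.2, 79.9, 87.2, 65.98 and 82.4 CPM in Ag libraries 1 to 5 and at 105, 113, 100.5, 105 and 113 in Ag+Costim libraries 1 to 5. The 2 groups did not overlap under TMM scaling, with Ag+Costim on top. They overlapped with DESeq2 size factors, total counts or upper quartile scaling. The group means were 73.7 ± 13.9 CPM (SD, n = 5) for Ag and 107 ± 5.68 (SD, n = 5) for Ag+Costim, and the log2 fold change was 0.54 ± 0.15 (SE), with an edgeR adjusted p of 0.198. It was the member with the smallest unadjusted edgeR p. In transcripts per M after scaling by length the groups overlapped, at 33.99 to 51.6 in Ag and 45.98 to 55.7 in Ag+Costim. The coding transcript Slc2a3-201 held a mean of 69.6% of Slc2a3 counts in Ag and 53.1% in Ag+Costim. Slc2a3-204, which retains an intron, held 24.6% and 40.1%, and both shares overlapped between groups. Which transcript carries the difference in Slc2a3 counts was not tested. Slc2a1 was at 37.2, 90.3, 55.02, 52.7 and 89.5 CPM in Ag libraries 1 to 5 and at 88.3, 84.95, 82.3, 86.5 and 91.7 in Ag+Costim libraries 1 to 5. Here Ag 2 and Ag 5 lay among the Ag+Costim libraries, and the other 3 below them (log2 fold change 0.42 ± 0.23, SE, edgeR adjusted p = 0.307).

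Hexokinase traps glucose in the cell as glucose 6-phosphate, with Hk1 the constitutive form and Hk2 the form known to be induced by HIF-1. Hk1 was at 146, 173, 152, 207 and 212 CPM in Ag and at 202, 212, 280.3, 223 and 253 in Ag+Costim. The groups overlapped at Ag 4 and 5, and Ag 4 was among the highest Ag libraries here, unlike for most enzymes (log2 fold change 0.39 ± 0.16, SE, edgeR adjusted p = 0.262). Hk2 was much lower, at 2.19, 13.3, 14.96, 2.07 and 6.72 CPM in Ag and at 10.5, 13.1, 10.8, 14.9 and 15.9 in Ag+Costim. Ag 1 and Ag 4 were the low libraries and Ag 3, at 14.96 CPM, lay in the upper Ag+Costim range (log2 fold change 0.74 ± 0.52, SE, edgeR adjusted p = 0.390). Gpi1, which turns glucose 6-phosphate into fructose 6-phosphate, was at 248, 586, 371, 317 and 690 CPM in Ag and at 527, 506, 539, 547 and 581 in Ag+Costim. Its highest values were in Ag 2 and Ag 5, above all 5 Ag+Costim libraries, and its lowest in the other Ag libraries (log2 fold change 0.29 ± 0.26, SE, edgeR adjusted p = 0.498).

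Phosphofructokinase commits sugar to glycolysis, and its subunits are the liver (Pfkl), muscle (Pfkm) and platelet (Pfkp) types. Pfkl was at 61.6, 139.6, 104, 73.5 and 170.5 CPM in Ag and at 171, 163, 175, 222 and 186 in Ag+Costim. Only Ag 5, at 170.5 CPM, reached the Ag+Costim range of 163 to 222 (log2 fold change 0.74 ± 0.27, SE, edgeR adjusted p = 0.245). Pfkp, the most abundant subunit, was at 194, 609, 421, 250.4 and 668 CPM in Ag and at 652, 677, 640, 720.5 and 723 in Ag+Costim. Ag 5 again overlapped the Ag+Costim libraries and Ag 2 fell just short of them (log2 fold change 0.67 ± 0.32, SE, edgeR adjusted p = 0.276). Under total count scaling all Ag+Costim libraries lay above all Ag libraries for both Pfkl and Pfkp. Pfkm was at 6.49, 5.89, 7.48, 8.44 and 8.70 CPM in Ag and at 7.61, 7.73, 8.94, 8.29 and 7.26 in Ag+Costim. Ag 1 and Ag 2 lay below all Ag+Costim libraries and the other 3 among them, and its fold change, 0.11 ± 0.16 (SE), turned negative with other library scalings. Pfkfb3 and Pfkfb4 make and break fructose 2,6-bisphosphate, the activator of phosphofructokinase. Pfkfb3 was at 9.58, 13.8, 7.62, 14.4 and 5.21 CPM in Ag and at 12.3, 12.6, 11.3, 8.59 and 14.5 in Ag+Costim. Its lowest library was Ag 5 (log2 fold change 0.22 ± 0.28, SE, edgeR adjusted p = 0.610), and the sign turned with total count and upper quartile scaling. Pfkfb4 was at 4.41, 0.173, 7.65, 4.78 and 0.892 CPM in Ag and at 0.864, 1.12, 2.01, 1.44 and 2.61 in Ag+Costim. It ran against the enzymes of the main route, being lowest in Ag 2 and Ag 5 and highest in Ag 3 (log2 fold change -1.15 ± 0.78, SE, edgeR adjusted p = 0.372). Against Ag 2 and 5 alone its log2 fold change was 1.65 in the other direction.

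Aldolase cuts the phosphorylated sugar into triose phosphates, which triose phosphate isomerase (Tpi1) converts into one another. Aldoa, the ubiquitous aldolase, was at 309, 1010, 612, 354 and 1265 CPM in Ag and at 996, 930.4, 882, 1111 and 966 in Ag+Costim. Ag 1 and Ag 4 had the lowest values and Ag 5 lay above every Ag+Costim library (log2 fold change 0.46 ± 0.36, SE, edgeR adjusted p = 0.434). Tpi1 was at 96.6, 683, 350.4, 122 and 819.5 CPM in Ag and at 635, 608, 574, 803 and 662 in Ag+Costim. It had the widest spread of the enzymes of the main route, with an 8.48-fold range in Ag and a 1.40-fold range in Ag+Costim (log2 fold change 0.66 ± 0.53, SE, edgeR adjusted p = 0.437). Aldoc, the brain-type aldolase, was at 5.68, 2.56, 3.11, 5.37 and 2.61 CPM in Ag and at 2.38, 2.07, 2.29, 0.896 and 2.83 in Ag+Costim. It was highest in Ag 1 and Ag 4, the libraries where Aldoa was lowest, and the groups overlapped through Ag 2, Ag 5 and Ag+Costim 5 (log2 fold change -0.89 ± 0.38, SE, edgeR adjusted p = 0.266). DESeq2 gave it an adjusted p of 0.0445.

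The payoff steps of glycolysis followed the same order. Gapdh, which makes the first NADH, was at 60.5, 378, 199.7, 90.6 and 458 CPM in Ag and at 320.1, 309, 313, 369 and 312 in Ag+Costim. Ag 2 and Ag 5 lay above all 5 Ag+Costim libraries and the other 3 below (log2 fold change 0.45 ± 0.48, SE, edgeR adjusted p = 0.554). These counts were a small share of the family: 77 other annotated genes, 74 of them pseudogenes, match a Gapdh transcript over 300 bases or more at 95% identity or more, and they held 91.5 to 93.2% of the counts on Gapdh and its copies together. With the copies added, the unscaled levels were 1236, 4239, 3030, 1328 and 4642 CPM in Ag 1 to 5 and 3445 to 4041 in Ag+Costim, in the same library order. Pgk1, which makes the first ATP, was at 105, 569, 326, 135 and 619 CPM in Ag and at 526, 511, 475, 644 and 559.6 in Ag+Costim. Ag 2 and Ag 5 lay inside the Ag+Costim range (log2 fold change 0.63 ± 0.45, SE, edgeR adjusted p = 0.393). Pgam1, the phosphoglycerate mutase, was at 115, 436, 266, 142 and 496 CPM in Ag and at 403, 402, 417, 543 and 437 in Ag+Costim. The groups overlapped in the same way (log2 fold change 0.60 ± 0.38, SE, edgeR adjusted p = 0.346).

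Enolase makes phosphoenolpyruvate. Eno1, the enolase of most tissues, was at 694, 2809, 1851, 832 and 3761 CPM in Ag and at 2918, 2886, 2913, 3576 and 3210 in Ag+Costim. Ag 5 had the highest value of all 10 libraries and Ag 1 the lowest (log2 fold change 0.64 ± 0.42, SE, edgeR adjusted p = 0.361). Its retrocopy Eno1b and other copies held 11.1 to 12.3% of the counts on the 4 genes together, so a part of the Eno1 reads may be counted there. Eno3, the muscle type, was at 9.59, 12.8, 7.63, 10.4 and 22.1 CPM in Ag and at 15.1, 14.8, 19.3, 17.2 and 17.2 in Ag+Costim. Its lowest library was Ag 3 and its highest was Ag 5 (log2 fold change 0.42 ± 0.26, SE, edgeR adjusted p = 0.342). Pgk1 and Pgam1 had 3.70 to 4.45% and 5.90 to 6.59% of such counts on copies.

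Lactate dehydrogenase is made of A (Ldha) and B (Ldhb) subunits, the A subunit being the form that favours lactate. Ldha was at 749, 3405, 1890, 849 and 4263 CPM in Ag and at 3236, 3142, 2963, 4108 and 3300 in Ag+Costim. Ag 5 was the highest of all libraries and Ag 1 and Ag 4 were several times below every Ag+Costim library (log2 fold change 0.59 ± 0.45, SE, edgeR adjusted p = 0.421). Ldhb was at 7.31, 3.69, 3.25, 6.42 and 4.98 CPM in Ag and at 2.37, 2.87, 4.09, 3.46 and 2.08 in Ag+Costim. It was highest in Ag 1 and Ag 4, where Ldha was lowest, and the groups overlapped (log2 fold change -0.79 ± 0.30, SE, edgeR adjusted p = 0.252). DESeq2 gave Ldhb an adjusted p of 0.0313. Lactate leaves through the monocarboxylate transporters Slc16a1 (MCT1) and Slc16a3 (MCT4). Slc16a1 was at 51.9, 178, 104, 52.9 and 131 CPM in Ag and at 166, 175, 161, 217 and 199.5 in Ag+Costim. Only Ag 2 reached the Ag+Costim range, and this was the largest positive fold change among the members (log2 fold change 0.83 ± 0.33, SE, edgeR adjusted p = 0.257). Slc16a3 was at 3.01, 10.8, 11.8, 4.38 and 17.3 CPM in Ag and at 16.4, 14.6, 13.1, 17.9 and 16.7 in Ag+Costim. Ag 5 overlapped the Ag+Costim libraries, which lay above the other 4 (log2 fold change 0.74 ± 0.41, SE, edgeR adjusted p = 0.307).

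Pyruvate dehydrogenase sends pyruvate into the mitochondrial cycle, and its kinases Pdk1 and Pdk3 switch it off. Pdha1, the E1 alpha subunit, was at 115, 162, 127, 132 and 189 CPM in Ag and at 178, 174, 189.6, 206 and 192 in Ag+Costim. Ag 5 overlapped Ag+Costim and the other 4 Ag libraries lay below (log2 fold change 0.37 ± 0.16, SE, edgeR adjusted p = 0.266). Pdhb, the E1 beta subunit, was at 97.8, 181, 125, 106 and 219 CPM in Ag and at 192, 179.5, 186, 199 and 189 in Ag+Costim. Ag 2 and Ag 5 were in or above the Ag+Costim range (log2 fold change 0.38 ± 0.22, SE, edgeR adjusted p = 0.326). Pdk3 was at 56.3, 124, 92.7, 69.7 and 173 CPM in Ag and at 145, 126, 129.6, 149.9 and 139 in Ag+Costim. It followed the order of the glycolytic enzymes (log2 fold change 0.42 ± 0.27, SE, edgeR adjusted p = 0.354). Pdk1, a known HIF-1 target, was at 74.9, 50.2, 34.9, 63.7 and 47.8 CPM in Ag and at 42, 40.5, 46.5, 37.5 and 38.4 in Ag+Costim. It was highest in Ag 1 and Ag 4, the reverse of Pdk3, and Ag 3 lay below all Ag+Costim libraries (log2 fold change -0.41 ± 0.19, SE, edgeR adjusted p = 0.276).

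The pentose phosphate pathway begins with glucose 6-phosphate dehydrogenase (G6pdx) and 6-phosphogluconate dehydrogenase (Pgd), which make NADPH. Pgd was at 60.8, 116, 90.2, 77.4 and 133 CPM in Ag and at 136, 143, 144, 157 and 145 in Ag+Costim. The Ag+Costim values stood above all Ag values, and it was the 1 member for which this held under TMM, DESeq2 size factor and total count scaling. The group means were 95.4 ± 28.97 CPM (SD, n = 5) for Ag and 145 ± 7.39 (SD, n = 5) for Ag+Costim, and the log2 fold change was 0.61 ± 0.20 (SE), with an edgeR adjusted p of 0.234. G6pdx was at 64.99, 186, 124, 79.5 and 195 CPM in Ag and at 183, 175, 169.5, 193 and 191 in Ag+Costim. Ag 2 and Ag 5 lay in or above the Ag+Costim range (log2 fold change 0.49 ± 0.29, SE, edgeR adjusted p = 0.327). Transketolase (Tkt) and transaldolase (Taldo1) link the pentoses back to glycolysis. Tkt was at 145, 445, 297, 152 and 544 CPM in Ag and at 491, 464, 474, 523 and 513 in Ag+Costim. Ag 5 lay above every Ag+Costim library and Ag 2 just below them (log2 fold change 0.64 ± 0.35, SE, edgeR adjusted p = 0.304). Taldo1 was at 193, 452, 270.2, 204 and 539 CPM in Ag and at 391, 399, 388, 382 and 389 in Ag+Costim. The Ag+Costim libraries spanned 382.5 to 399 CPM, the tightest range of any member, between Ag 2 and 5 above and the other Ag libraries below (log2 fold change 0.23 ± 0.28, SE, edgeR adjusted p = 0.606).

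Hif1a encodes the oxygen-regulated subunit of HIF-1, which is controlled mostly at the level of the protein. It was at 170.5, 236, 188, 249 and 178 CPM in Ag and at 251, 267, 282, 336 and 269.7 in Ag+Costim. All Ag+Costim libraries lay above all Ag libraries, with 249 in Ag 4 next to 251 in Ag+Costim 1. The group means were 204 ± 35.8 CPM (SD, n = 5) for Ag and 281 ± 32.8 (SD, n = 5) for Ag+Costim, and the log2 fold change was 0.46 ± 0.16 (SE), with an edgeR adjusted p of 0.238. Hif1a did not follow the order of the enzymes, since Ag 4 was its highest and Ag 1 and 5 its lowest Ag libraries. The separation was lost with DESeq2 size factors, total counts or upper quartile scaling.

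The letters of the HIF-1 element were looked up in the promoters, since HIF-1 is known to bind many genes of glycolysis. RefSeq (GRCm38.p6) gave 43 promoters, from 250 bases before to 50 after a transcript start, for 30 of the 31 genes. The core letters ACGTG or GCGTG, on either strand, were in 36 of the 43 (83.7%), against 43.8% of 32851 promoters of all genes, and the E-box letters CACGTG, which contain ACGTG, in 5 of the 43 (11.6%, against 7.15%). The member promoters were also richer in G and C, with a median of 61.0% and 20 CG pairs against 52.7% and 7, and a match of letters is not a bound site. For 6 genes, of which Slc2a1, Pgk1, Ldha and Pgd had the recurring order among the Ag libraries and Pdk1 and Hif1a another, the 30 bases around the match nearest before the start read as follows, with every matched letter in capitals, also where the window ends inside a match.
Slc2a1 (chr4:119108697-119108726, + strand, 36 bases before the start): gtcccgccccggACGTGctccccaggcccc
Pgk1 (chrX:106186957-106186986, + strand, 131 bases before the start): aaatggaagtagCACGTctcactagtctcg
Ldha (chr7:46845758-46845787, + strand, 34 bases before the start): CGTGggttcccgCACGTccgctgggctccc
Pdk1 (chr2:71873134-71873163, + strand, 78 bases before the start): ccgcctacatggGCGTGtctttaaccaggg
Pgd (chr4:149166728-149166757, - strand, 40 bases before the start): agagacccaataGCGTGgggcatcggccca
Hif1a (chr12:73907785-73907814, + strand, 70 bases before the start): tggctgagagcaACGTGggctggggtgggg

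Ratios between members within a library do not depend on its scaling. Of the 12 ratios of per-length levels tested, 0 had an adjusted p under 0.05 by a two-sided exact permutation test over all splits into 5 and 5 libraries, whose smallest possible p is 0.00794, and 5 had an unadjusted p under 0.05. The Pdk1/Pdha1 ratio, kinase over its substrate, was 0.407, 0.173, 0.183, 0.289 and 0.139 in Ag 1 to 5 and 0.133, 0.131, 0.138, 0.103 and 0.111 in Ag+Costim. The groups were apart with Ag+Costim below, a 0.556-fold ratio of the groups (exact permutation p = 0.00794, adjusted 0.0952). It was the 1 ratio with no overlap. The Ldhb/Ldha ratio was 0.0124, 0.00133, 0.00217, 0.00956 and 0.00155 in Ag and 0.00095, 0.00114, 0.00169, 0.001 and 0.00082 in Ag+Costim, 0.31-fold (exact permutation p = 0.0238, adjusted 0.114). The Ag and Ag+Costim values overlapped through Ag 2 and Ag 5.

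Pdk3/Pdk1 was 1.60, 5.83, 5.32, 2.41 and 8.77 in Ag and 8.17, 7.39, 6.61, 9.46 and 8.73 in Ag+Costim, 1.99-fold higher (exact permutation p = 0.0476, adjusted 0.114). Ag 5 was inside the Ag+Costim range and Ag 1 and 4 far below it. Pfkm/Pfkl was 0.125, 0.0544, 0.0859, 0.137 and 0.067 in Ag and 0.0486 to 0.0655 in Ag+Costim (0.647-fold, exact permutation p = 0.0476, adjusted 0.114). G6pdx/Gpi1, the entry to the pentose phosphate pathway over that to glycolysis, was 0.292, 0.352, 0.378, 0.284 and 0.315 in Ag and 0.349 to 0.391 in Ag+Costim (1.16-fold, exact permutation p = 0.0397, adjusted 0.114). The other 7 ratios, Slc2a3/Slc2a1, Hk2/Hk1, Pfkp/Pfkl, Pfkfb4/Pfkfb3, Aldoc/Aldoa, Eno3/Eno1 and Slc16a3/Slc16a1, had exact permutation p values of 0.103 to 0.913. Without Ag 2, 4 ratios passed the adjusted threshold, and without Ag 5, 2 did.

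**Figure D3:**
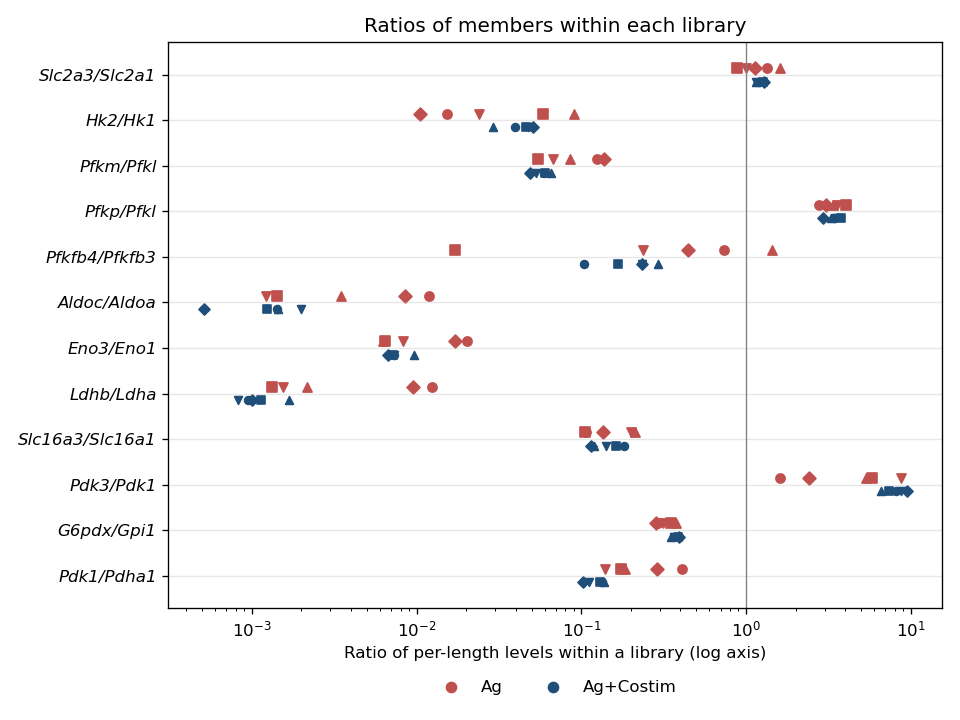
The 12 ratios of per-length levels within each library (log axis; red, Ag; blue, Ag+Costim; marker shape, replicate number). For Pdk1/Pdha1 all 5 Ag+Costim points, 0.103 to 0.138, lie below the 5 Ag points, 0.139 to 0.407.

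Per-length levels (TPM, transcripts per M after scaling by length, from the transcript counts) put the members in order. Ldha was highest, at 2122 ± 1054 (SD, n = 5) TPM in Ag and 3293 ± 465 in Ag+Costim, 17th of all genes in Ag+Costim. Eno1 followed at 1508 ± 675 and 2342 ± 201 TPM, then Aldoa at 729 ± 260 and 986 ± 78.8, Tpi1 at 392 ± 240 and 636 ± 77.2, and Taldo1 at 430 ± 93.7 and 485 ± 13.0. Gapdh, 8th at 251.6 ± 143 and 358 ± 33.1 TPM, does not include the counts on its copies. At the other end Pfkfb4 was at 2.85 ± 2.61 and 0.83 ± 0.319 TPM, and Aldoc at 2.93 ± 1.78 and 1.28 ± 0.501. Of the 30 pairs of neighbours in the Ag+Costim order, 12 had ranges that did not overlap. The ranges of the other 18 pairs overlapped, and whether their levels differ within libraries was not tested. Some of these pairs, such as Pgk1 above Pgam1, kept their order in every Ag+Costim library. Between isozymes, Hk1 (85.7 ± 11.7 TPM in Ag+Costim) stood above Hk2 (3.62 ± 0.669), Pfkp (256 ± 14.3) above Pfkl (76.1 ± 8.43) and Pfkm (4.33 ± 0.244), and Slc16a1 (63.4 ± 7.69) above Slc16a3 (9.03 ± 1.57).

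Genes on the opposite strand overlap some members, and the SMART-Seq kit does not mark strand. Pitrm1 overlaps Pfkp and held 18.4% as many counts, Ikbkg overlaps G6pdx with 27.6%, Iffo1 overlaps Gapdh with 6.21%, and Senp1 overlaps Pfkm with 11.3 times its counts. Reads of Senp1 may be among the counts of Pfkm in particular, and how many are was not tested.

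Transcript usage, the share of a gene's counts on each annotated transcript, was tested in 28 members with edgeR. A call needed an adjusted p under 0.05 and a mean share that changed by over 10 points. By that rule edgeR called 0 members, where 29 of 10442 genes (0.278%) were called. In 4 members (Pfkp, Ldha, Pdk1 and Pfkl) the unadjusted edgeR p was under 0.05, against 6.48% of genes. No member had a transcript whose mean share differed by over 10 points without overlap, where 1.79% of genes did. By the same rule limma diffSplice called 144 genes (1.38%), of which 1, Aldoa, is a member. The transcripts named next were chosen after their values were seen. For Ldha the edgeR adjusted p was 0.169. Its transcript Ldha-202, which encodes the enzyme, held 85.4, 96.6, 95.01, 84.2 and 98.9% of Ldha counts in Ag 1 to 5 and 79.4, 60.4, 86.7, 69.1 and 65.2% in Ag+Costim. Ldha-209, annotated as a target of nonsense-mediated decay, held 0% in all 5 Ag libraries, which have 134186 to 1582610 Ldha counts and so allow a share of up to 0.00224% by counting error, and 14.1, 23.4, 8.23, 25.4 and 0% in Ag+Costim. This transcript was outside the test, since only 4 libraries had counts on it. Ag+Costim 5, the library without it, had 29.1% of Ldha counts on Ldha-201, against 3.92 to 6.29% in the other 4.

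**Figure D4:**
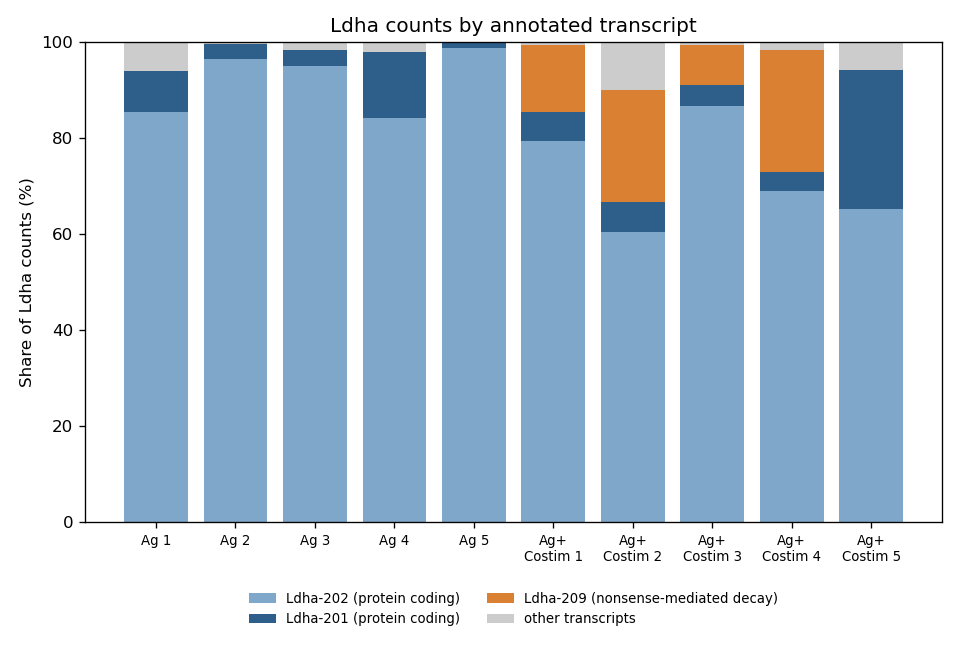
Share of Ldha counts on each annotated transcript (vertical axis, percent) in the 10 libraries (horizontal axis). Ldha-209, in orange, is at 8.23 to 25.4% in 4 Ag+Costim libraries and at 0% in Ag and in Ag+Costim 5.

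In Eno1 the share of the main transcript Eno1-202 did not overlap between groups, at 98.1 to 99.1% in Ag and 99.5 to 99.6% in Ag+Costim, a difference of 0.82 points. In 3 further genes a mean share differed by over 10 points with groups that overlapped. Slc2a3-204, a transcript with a retained intron, was at 1.78 to 54.8% in Ag and 4.996 to 54.2% in Ag+Costim, and Aldoa-201 at 70.3 to 88.5% and 65.8 to 75.6%. Eno3-206 was at 5.06 to 66.2% and 29.3 to 67.9%. These shares are estimates of how the assembler divided reads between transcripts that share most exons.

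The deposited table of splicing events gives 1 percent-spliced-in value (PSI, the share of transcripts that include a segment) per group, so it has no replicate error. It held 375 events in the 31 genes. One passed a probability over 0.9 with a PSI difference over 0.05, or 0.267% of them, where 1464 of 138940 events (1.05%) did. This was an alternative acceptor at the start of exon 11 of Hif1a-201 (chr12:73941688-73941729, + strand, 42 bases in a protein-coding exon), included at 0.605 of transcripts in Ag against 0.522 in Ag+Costim, a difference of -0.082. The median absolute PSI difference over the members' events was 0.00062, against 0.0047 over all events. It differed by event type. The 318 core exon events of the members had a median of 0.00054, and the 33 tandem 3' end events had one of 0.044. Of these 33, 15 differed by over 0.05, but none passed the probability threshold as well.

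The other genes of the same pathways were read in the same fit. Of 59 listed genes of glycolysis, gluconeogenesis, the pentose phosphate and neighbouring pathways, 48 were tested and edgeR called 0. At an unadjusted edgeR p under 0.05 there were 13 (10 higher, 3 lower), where 18.6% of all genes met that level (7.89% higher, 10.7% lower). In 3 of the 48 all Ag+Costim libraries lay above all Ag libraries. The same held for 4.48% of all genes and 11.3% of those averaging at least 10 CPM. Gpd2, the mitochondrial glycerol 3-phosphate dehydrogenase, was at 32.3, 79.7, 48.3, 37.2 and 77.7 CPM in Ag and at 106, 96.2, 95.6, 141 and 122 in Ag+Costim. Pgm1, a phosphoglucomutase, was at 40.9, 63.1, 56.8, 47.9 and 70.8 CPM in Ag and at 79.3, 73.6, 83.2, 77.5 and 76 in Ag+Costim. Rpe, the ribulose phosphate epimerase, was at 41.8, 79.01, 50.9, 55.1 and 78.9 CPM in Ag and at 81.3, 82.95, 80.8, 91.01 and 84.8 in Ag+Costim. These libraries were separate, but edgeR gave adjusted p values of 0.189, 0.229 and 0.259 and DESeq2 of 0.00774, 0.0278 and 0.067. Pgam2, the muscle phosphoglycerate mutase, lay below in every Ag+Costim library, at 0.599 to 0.851 CPM against 0.869 to 1.2 in Ag. Of all genes, 1.13% were separate in this direction. Of 20 HIF pathway genes 20 were tested, edgeR called 0, and 14 had a fitted log2 fold change above 0. In 1 of them, the oxidoreductase Ero1l, Ag+Costim was separate above Ag, as in 4.48% of all genes. Ero1l was at 24.4, 61.98, 54.05, 29.3 and 63.5 CPM in Ag and at 71.4, 74.9, 67.1, 93.3 and 76.9 in Ag+Costim.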

How the data were processed

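Libraries were made with SMART-Seq v4 and Nextera XT and sequenced as paired-end reads at a stated 50 to 100 M reads (M, 1000000) a sample. Per the labels and the study's methods, the authors aligned reads to mm10 with HISAT2 2.1.0, processed them with SAMtools 1.9, and deposited estimated counts per gene and transcript from StringTie 2.1.0. The deposited totals of 59.6 to 639.1 M are therefore not read numbers. The authors ran Whippet for splicing and deposited 1 inclusion fraction per event and group with a probability score. That score was used here only as a threshold, and the table's own difference column, the authors' result, was not used.

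Estimated counts were rounded, filtered with filterByExpr, scaled by TMM and fitted with edgeR 4.0.16 (R 4.3.3), with p-values adjusted by Benjamini-Hochberg across the 24262 tested genes (threshold 0.05). DESeq2 1.42.0 and limma 3.58.1 were alternatives. Entries outside the annotation (26345, at most 0.308% of counts) were left out. Transcript usage was tested with diffSpliceDGE over genes with 2 or more transcripts of at least 10 counts in 5 libraries, and ratios with an exact permutation test. A usage call needed an adjusted p under 0.05 and a change of mean share over 10 points. Copies of a member were found with blastn 2.17.0. Fits were tested on simulated data with an equal spread in both groups, so that test does not cover the unequal spread of these libraries. Alternatives covered scaling, filters, tests, each library left out and a replicate block. All 31 members are named, and other genes of the pathways were named where a call or a separation of groups was found. Transcripts were named after their values were seen, also without a call or a separation. Members and lists were chosen with earlier results of these data known. Intervals and limits for a count of 0 cover counting error only.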

Additional observations from a re-analysis of the deposited data

Results flagged for a closer look

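Over 86 sets of 5 libraries (31 members and 12 ratios in 2 groups), 3 held a library apart from the other 4 by the Dixon criterion at the 95% level, where chance gives about 1 in 20. Gapdh was at 369.1 CPM in Ag+Costim 4, above 309 to 320 in the others. Pgam1 was at 542.9 CPM in Ag+Costim 4, above 402 to 437. The Eno3/Eno1 ratio was 0.0096 in Ag+Costim 3, above 0.00671 to 0.00732. The number of sets named was below what that rate gives.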

How the results depend on the processing

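The count of members called by edgeR was 0 under the other scalings and filters, with each library left out and with a replicate block, and 0 with limma voom, but 5 with DESeq2 and 29 with limma voom and library quality weights. Members without overlap numbered 3, but 1 with DESeq2 size factors, 0 with upper quartile scaling, and 3 to 11 with a library left out, the 11 without Ag 5 (7.01% of genes). With total counts they were Pfkl, Pfkp and Pgd (2.76% of genes). With Ag 1, 3 and 4 left out, added after the data were seen, edgeR called 2 and 7 did not overlap (4 higher and 3 lower, where 20.2% and 10.9% of genes were). The cause of these differences was not tested. The quality weights were lowest for Ag 2 and Ag 5. The log2 fold change of Pfkm turned to -0.0352 (DESeq2 size factors), -0.1799 (total counts), -0.1375 (upper quartile) and -0.0243 (DESeq2), and that of Pfkfb3 to -0.0855 (total counts), -0.0174 (upper quartile) and -0.0822 (filter of 10 CPM), and no other member reversed under the scalings, filters, tests and single omissions tried. With Ag 1, 3 and 4 left out, 15 members turned sign: Slc2a1 to -0.0204, Gpi1 -0.2067, Pfkfb4 1.6486, Aldoa -0.1839, Tpi1 -0.1602, Gapdh -0.3309, Pgk1 -0.0971, Pgam1 -0.0479, Eno1 -0.0469, Eno3 -0.0196, Ldha -0.1596, Pdk3 -0.0656, Pdhb -0.0462, G6pdx -0.0329 and Taldo1 -0.3121. Of 616 member values under alternatives, 559 kept direction and side of the threshold, 35 passed it and 22 changed sign.

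Ratios past the adjusted threshold numbered 0, but 0 to 4 with a library left out, 4 without Ag 2 and 2 without Ag 5. With gene counts in place of per-length levels the log2 change of Pfkp/Pfkl was -0.0014 and of Slc16a3/Slc16a1 0.0136, both reversed. With a library left out it ran from -0.0544 to 0.161 for Slc2a3/Slc2a1, -0.0535 to 0.0839 for Pfkp/Pfkl, -1.58 to 0.0218 for Pfkfb4/Pfkfb3 and -0.152 to 0.1 for Slc16a3/Slc16a1. Events past the thresholds were 0 with a PSI difference over 0.1, and limma diffSplice called 1 member for usage. With union exon length, 18 members took another rank, at most 6 places (Pgd).

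Replicate numbers did not pair the libraries: deviations of same-numbered libraries correlated at 0.209, -0.013, -0.199, -0.437 and 0.049. The replicate block called 0 members, 0 ratios and 0 for usage. With 5 paired differences the smallest p is 0.0625, so the ratio value says nothing of stability.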
